A study of Mus musculus with 2 samples.

Results

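The 33 genes described here encode SR proteins, Tra2 proteins and hnRNPs of the mouse adrenal gland. They are the protein_coding genes of GENCODE release M21 whose symbols are Srsf with a number, Tra2a or Tra2b, or Hnrnp with a suffix. There were 11 SR genes, 2 Tra2 genes and 20 hnRNP genes among 15683 annotated genes with reads, 13420 of them protein_coding. All 33 had reads in replicate 1 and 32 in replicate 2, on 368 and 312 transcript models. The members held 2157 and 1561 reads, or 0.477% and 0.337% of the endogenous reads.

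SR proteins carry RNA recognition domains and a tail rich in arginine and serine, and bind exons to favour their inclusion. hnRNPs coat nascent transcripts, and many favour exon skipping. Genes of both families are known to hold exons or introns whose inclusion brings in an early stop codon, so that the RNA is retained in the nucleus or degraded by nonsense-mediated decay, which limits the protein's own level.

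Long-read RNA sequencing reads a whole cDNA molecule at once, so that each read shows which exons lie together. The series held a single group of 2 libraries, both of adrenal gland. The mice were B6CASTF1/J, first-generation offspring of a cross between strains, male, 36 days of age, with no treatment named in the labels. One label field names Male 03 for the first library and Male 04 for the second, whereas others name Male 03 or the same donor for both. The exact tests below set the reads of replicate 1 against those of replicate 2. They take reads as independent and hold counting error only, with no estimate of the spread between samples, so they compare libraries, not conditions, and a difference may be technical.

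Replicate 1 had 452437 endogenous reads and replicate 2 had 463102, after leaving out 5564 and 15900 spike-in reads. Levels are given as CPM, the read count scaled to 1000000 endogenous reads. On that scale the first library's reads stood for 2.21 CPM each and the second's for 2.16, so that 0 reads (limit of 3 counts) leave room for up to 6.63 and 6.48 CPM. Cortex markers were abundant in both libraries (6 genes, 65859 and 53440 CPM in sum), as were chromaffin cell markers (5 genes, 10479 and 15403 CPM). Replicate 2 stood apart by 8 pancreas acinar cell markers, with 34 reads in replicate 1 and 2849 in replicate 2, where 7 of the 8 had 0 reads in replicate 1. Its 4 liver markers had 1 and 186 reads. The part of these cells in the differences between libraries was not tested. In bulk tissue, fewer cells of a type and less RNA per cell cannot be told apart.

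The most abundant member was Hnrnpk, a KH-domain protein that binds C-rich RNA and DNA, at 619 and 361 CPM. Hnrnpa2b1, an RNA-binding protein with an isoform A2 and an isoform B1, followed with 517 and 328 CPM. These led in both libraries, but the SD of Hnrnpk (490 ± 183 CPM, n = 2) was larger than the gap to Hnrnpa2b1 (423 ± 134 CPM, n = 2). These CPM are reads per gene and are not divided by length, since each long read is counted once whatever its length. Whether transcript length changed how often a molecule was read was not tested.

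Srsf2, which binds exonic enhancers and is known for mutations in myeloid disease, had 351 and 263 CPM and was the highest SR gene in each library. Hnrnpf, a G-tract-binding hnRNP, had 360 and 248 CPM. Hnrnpu, a large nuclear matrix protein, had 250 and 209 CPM. The order of Srsf2 and Hnrnpf differed between the libraries.

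Srsf5, an SR protein with a pair of RNA recognition domains, had 228 and 188 CPM. Hnrnpc, which binds uridine tracts as a tetramer, had 217 and 123 CPM, and Hnrnpab, which contributes to RNA transport, had 199 and 127 CPM. The ranges of these 3 genes over the libraries overlapped. Srsf9, a short SR protein, had 179 and 140 CPM. Srsf3, the smallest SR protein, had 181 and 134 CPM. Together these 10 genes held 65.0% and 63.0% of the members' reads.

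The other 23 genes spanned a mean of 1.11 CPM to 157 CPM. Of the SR genes, Srsf12 had 1 and 0 reads, both under the 3-count floor, so no fold was taken. By family, SR genes summed to 1505 and 1127 CPM, Tra2 genes to 104 and 36.7 CPM, and hnRNP genes to 3158 and 2207 CPM. The median of the genes' mean levels was 97.2 CPM over 20 hnRNP genes and 96.4 CPM over 11 SR genes.

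**Figure D1:**
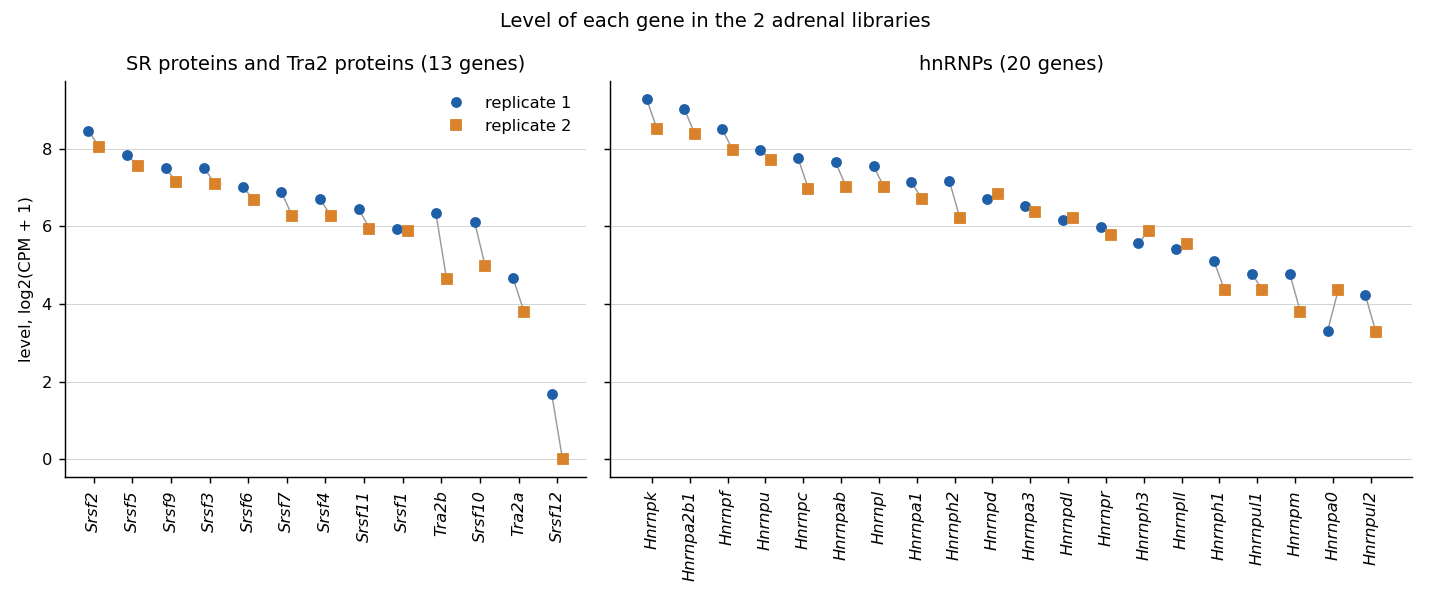
Level of each member as log2(CPM + 1), with circles for replicate 1 and squares for replicate 2, joined by a line; SR and Tra2 genes stand in the left panel and hnRNPs in the right, each by falling mean level. Tra2b shows a level of 79.6 CPM for replicate 1, against 23.8 CPM for replicate 2, and Srsf12 has 0 reads in replicate 2.

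Between the libraries, 1 of the 32 members with at least 10 reads in sum was called (two-sided Fisher's exact test, Benjamini-Hochberg over 8135 genes, adjusted p under 0.05 and at least 2-fold after adding 1 CPM). The same rule called 3.16% of all genes tested, and 1.71% as higher in replicate 1. The member was Tra2b, a splicing activator that binds GAA repeats, with 36 reads in replicate 1 and 11 in replicate 2. Its level was 3.35-fold higher in replicate 1 (exact 95% interval 1.67 to 7.30, for counting error only, adjusted p = 0.0051). Srsf10, which can repress splicing, had 31 and 14 reads (2.27-fold, adjusted p = 0.117 by Fisher's exact test) and did not pass. Tra2a, the paralogue of Tra2b, had 11 and 6 reads, with an adjusted p of 0.63 (Fisher's exact test).

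A further 5 members had an adjusted p under 0.05 at under 2-fold, so that 6 members were higher in replicate 1 by the adjusted p alone and none was higher in replicate 2 (254 of all genes were). By that rule 3.34% of all genes were higher in replicate 1. Hnrnpk had 280 and 167 reads (1.72-fold, adjusted p = 1.05e-06 by Fisher's exact test). Hnrnpa2b1 had 234 and 152 reads (1.58-fold), and Hnrnpc had 98 and 57 reads (1.76-fold).

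Hnrnph2, an X-linked relative of Hnrnpf, had 65 and 34 reads (1.96-fold, adjusted p = 0.024 by Fisher's exact test). Hnrnpf itself had 163 and 115 reads (1.45-fold, adjusted p = 0.037 by the same exact test). The adjusted p of these 2 genes did not stay under 0.05 under other settings: with edgeR's TMM scaling the adjusted p of the exact test was 0.0974 for Hnrnpf and 0.0521 for Hnrnph2.

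Most members stood on 1 side. Of 32 members, 27 had a higher level in replicate 1 (84.4%), against 55.2% of all genes tested, and the median log2 ratio of replicate 1 to replicate 2 was 0.44 for the members and 0.03 for all genes. By CPM, the 10 tested SR genes and 15 of 20 hnRNPs were higher in replicate 1. Srsf1, a founding SR protein, had 27 reads in each library and counts as higher (log2 ratio 0.03) only through the scaling by library total. With TMM or DESeq2 factors, 9 of 10 SR genes and 26 of 32 members were higher in replicate 1, against 48.6% and 49.1% of all genes tested. The 5 that were not were Hnrnpd, Hnrnpdl, Hnrnph3, Hnrnpll and Hnrnpa0, the last with 4 and 9 reads, and none of these differences passed the test.

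Genes that act with the members were counted in 4 lists. The first held SR protein kinases, which phosphorylate the arginine and serine tail, and phosphatase-side regulators. Of its 9 tested genes, 9 had a higher CPM in replicate 1 and 0 were called (median log2 ratio 0.83). The kinase Srpk2 had 7 reads in each library, a tie that the scaling by library total counts as higher. The most abundant was the kinase Clk3, with 43 and 20 reads (adjusted p = 0.052 by Fisher's exact test), followed by Clk2 with 28 and 23 reads and Clk4 with 17 and 9 reads. Of 21 SR-related proteins, 15 were higher in replicate 1 and 0 were called (median 0.43). They were led by Rbm39 with 106 and 72 reads, U2af1, a subunit of the factor that reads the 3′ splice site, with 76 reads in each library, and Snrnp70, a protein of the U1 particle, with 79 and 58 reads.

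Of 26 tested hnRNP-type proteins under other names, 16 were higher in replicate 1 and 0 were called (median 0.15). Pcbp1, a relative of Hnrnpk that binds poly(C), led this list with 267 and 217 reads, followed by Ewsr1 with 92 and 62 and Nono with 68 and 63. Of 12 tested genes of nuclear import and nonsense-mediated decay, 8 were higher in replicate 1 and 0 were called (median 0.08). Eif4a3, a core subunit of the exon junction complex, had 133 and 97 reads, Rbm8a, which encodes another subunit, 43 and 40, and Upf3a 28 and 23. With TMM or DESeq2 factors, under which genes with equal reads no longer count as higher, the numbers higher in replicate 1 were 8 of the 9 kinases and regulators, 14 of the 21 SR-related proteins, 14 of the 26 hnRNP-type proteins and 6 of the 12 genes of import and decay.

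The authors' models sort reads into classes. By the usual definitions, Known reads match an annotated form, ISM reads match only part of one, NIC reads join annotated splice sites in a way that is not annotated, NNC reads use a splice site that is not annotated, and Genomic reads lie in the gene without its annotated splice sites. Of the members' reads, 62.1% in replicate 1 and 64.3% in replicate 2 were Known, against 78.9% and 77.9% over all protein_coding genes. NIC reads made up 16% and 12.7% of the members' reads, against 4.28% and 3.63% over all protein_coding genes. NNC reads made up 7.37% and 6.92%, against 3.30% and 3.13%. Intervals given below are 95% Wilson intervals. They take reads as independent and cover counting error only, with no spread between samples. Molecules were not counted by identifiers.

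One gene carried much of this. Without Hnrnpk, 71.3% and 72% of the members' reads were Known, and NIC reads made up 8.84% and 7.68%. The split between NIC and NNC is given as the authors label it, and for Hnrnpk the NIC label does not keep to the definition above: its models nearest to Hnrnpk-232 and Hnrnpk-216, NIC in both libraries, use a splice site that M21 lacks. Known, NIC and NNC reads count as full-length. Of the 20 members that reached 20 such reads in both libraries, 8 had at least 10% of them on unannotated forms in both libraries (40%, against 20.5% of 2944 protein_coding genes). The 8 were Hnrnpk, Srsf5, Srsf7, Srsf11, Hnrnpf, Hnrnpa2b1, Hnrnpc and Hnrnpa1. The shares of Srsf5 were 64.0% and 33.3%, and those of Srsf7 were 30% and 39.4%.

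**Figure D2:**
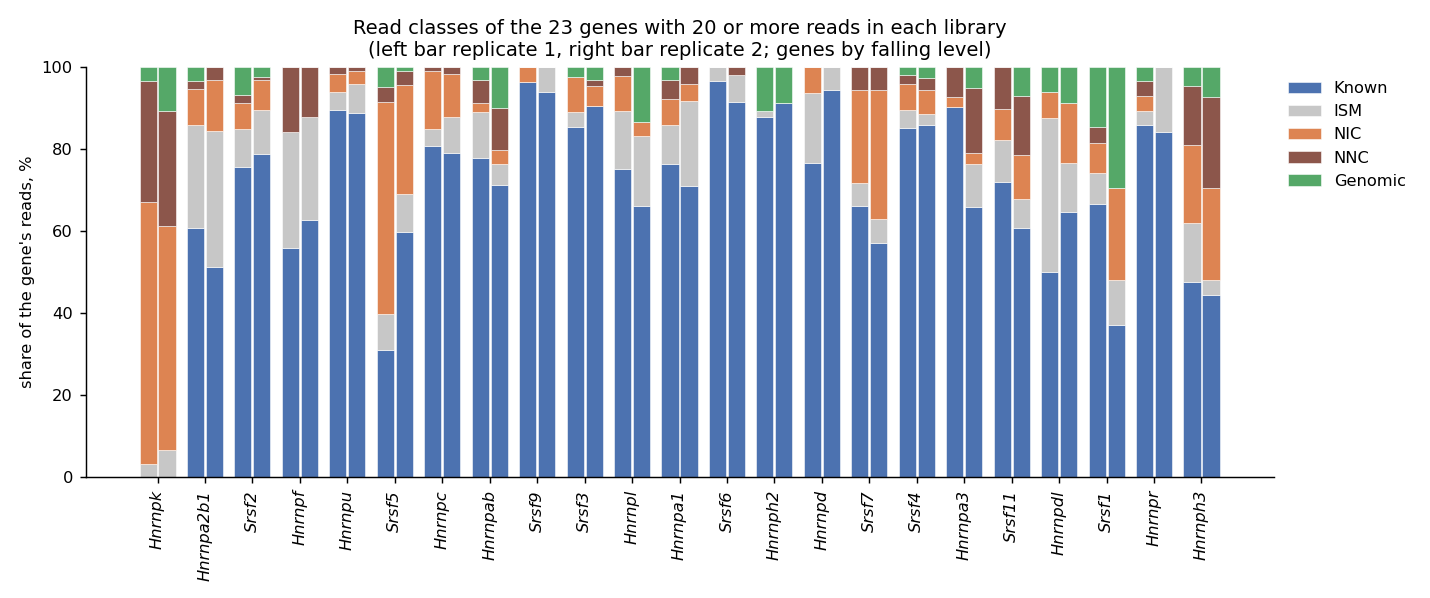
Share of each read class in the 23 members with at least 20 reads in each library, with the bar of replicate 1 left of that of replicate 2 and genes by falling level. The bars of Hnrnpk hold no Known reads, and NIC reads take 51.5% of Srsf5 reads in replicate 1 and 26.4% in replicate 2.

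Hnrnpk, on the minus strand at chr13:58391142-58403343 (mm10), was the most abundant member, and none of its 280 and 167 reads was Known. Its reads were 179 and 91 NIC, 82 and 47 NNC, 9 and 11 ISM, and 10 and 18 Genomic. Among the same 2944 protein_coding genes, 13 had no Known read in either, and Hnrnpk had the most reads of them (261 and 138 full-length). Next came Phb2, a mitochondrial prohibitin, with 140 and 122.

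The models differed from the annotation at one short exon. GENCODE M21 has an internal coding exon of 16 bases at chr13:58393853-58393868. It was held by the models of 0 of 268 reads in replicate 1 and 0 of 147 in replicate 2. Here and below, a read counts as holding an exon where its model does. By counting error alone this allows shares of up to 1.12% and 2.04% (3 counts) in the models. Models rarely held exons this short over all genes, as given below, so these values set no limit on the share in the RNA. In place of the exon, the models of most reads had an upstream exon longer by 16 bases, at chr13:58394060-58394075. The counts were 259 of 268 reads (96.6%, 95% Wilson interval 93.7 to 98.2%) and 140 of 147 reads (95.2%, 90.5 to 97.7%). The exon was skipped in 3 and 4 reads. The data used here give model coordinates and counts, and the sequences below come from the M21 transcripts. The bases of the reads themselves were not seen. Both stretches, shown as the minus strand reads them because they are what separates the models from the annotation, have the exon or the added bases in capitals and 12 flanking bases in lower case.
Annotated exon of Hnrnpk: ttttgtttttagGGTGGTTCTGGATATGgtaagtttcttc
Stretch in the models: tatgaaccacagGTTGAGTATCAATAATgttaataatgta

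The 2 stretches were of equal length and had the same base at 8 of 16 positions. The intron of the models starts with GT and ends with AG, as do both annotated introns around the exon, and M21 has no Hnrnpk exon that ends where the longer exon of the models does. Written into the coding sequence of Hnrnpk-201 in place of the annotated exon, which starts codon 365 of 463, the stretch of the models gave an in-frame TAA as codon 369. The annotated exon gave no stop in those 463 codons. Whether the reads hold the stretch of the models, or its stop, was not tested.

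When the annotated pair of introns was written back in place of the model intron, 203 of 261 full-length reads (77.8%) and 114 of 138 (82.6%) matched an annotated form of Hnrnpk. They fell on Hnrnpk-224 (78 and 48 reads), Hnrnpk-201 (72 and 42), Hnrnpk-232 (28 and 18), Hnrnpk-216 (20 and 5) and Hnrnpk-205 (5 and 1). The class labels of 2 of these chains differed between libraries: the chain nearest to Hnrnpk-224 was NNC in replicate 1 and NIC in replicate 2, and the chain nearest to Hnrnpk-201 was NIC in replicate 1 and NNC in replicate 2. Written back in this way, the Known share of all members' reads was 71.5% (mean of both libraries).

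Other very short exons were rarely held either. Over all genes, 63 annotated internal exons of coding forms of at most 15 bases had at least 10 spanning reads in each library, and 60 were held by no read in either. The median share of reads holding the exon was 0% in both libraries for the 34 exons of 11 to 15 bases, 0.49% and 0.28% for the 34 exons of 16 to 20 bases, and 96.6% and 98.6% for the 89 exons of 21 to 25 bases. A neighbouring exon that was longer instead, in over 50% of reads of both libraries, was seen at 4 exons: those of Hnrnpk (16 bases), Rwdd4a (3 bases), Apbb1 (6 bases) and Pitpnb (8 bases). Hnrnpm, which binds GU-rich RNA, also had no Known read among its 12 and 6 reads. Hnrnph1, a relative of Hnrnpf, had 1 Known read of 15 and 4 of 9. The 8-base exon of Hnrnpm was held by 0 of 4 and 0 of 1 spanning reads.

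**Figure D3:**
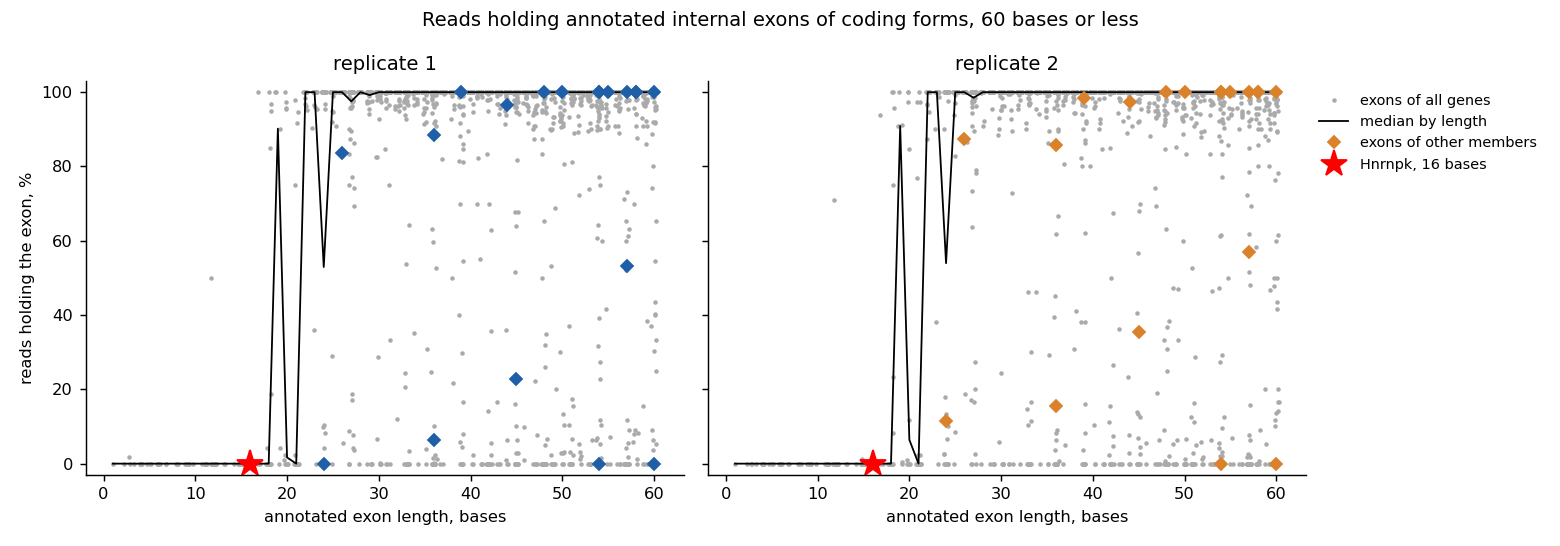
Percent of spanning reads that hold an annotated internal exon of a coding form, against exon length up to 60 bases, for replicate 1 on the left and replicate 2 on the right; grey points are exons of all genes, the line their median at each length, diamonds exons of other members and the star the 16-base exon of Hnrnpk. The star lies at 0% in both panels, as does the median at the shortest lengths, while the median of exons of 26 to 30 bases is 100%.

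The 33 genes have 139 annotated coding forms and 157 annotated forms of other types. Reads on the non-coding forms were few. Of 1339 and 1003 Known reads of the members, 54 and 41 (4.03% and 4.09%) lay on non-coding forms, against 1.80% and 2.01% over all protein_coding genes. The share was 6.38% and 5.85% for SR and Tra2 genes, and 2.48% and 2.87% for hnRNPs. In SR and Tra2 genes, 25 and 11 of these reads were on forms of the type retained_intron and 9 and 13 on nonsense_mediated_decay forms. The hnRNP genes had 4 and 1 against 16 and 14. Single genes carried much of this. Srsf7 held 12 and 3 and Srsf5 held 5 and 6 of the non-coding reads of SR and Tra2 genes. The form Hnrnpdl-201 held 8 and 6 of the nonsense_mediated_decay reads of hnRNP genes.

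Of 18 members with at least 20 Known reads in each library, 7 had non-coding reads in both (38.9%, against 19.4% of 2648 genes). No member was called between the libraries, and 0.0% of the 2648 genes were (two-sided Fisher's exact test with Benjamini-Hochberg adjustment). At an unadjusted p under 0.05 there were 24 genes, and 0 members. Shares of at least 10% in both libraries were found in 2 of the 18 members (11.1%, against 2.95% of genes). They were Srsf7 with 12 of 35 reads (34.3%, 20.8 to 50.8%) and 3 of 20 reads (15%, 5.24 to 36.0%), and Srsf5 with 5 of 32 (15.6%) and 6 of 52 (11.5%). With the same non-coding Known reads set over all full-length reads, 0 members reached 10% in both. Unannotated reads enter only the denominator there, whether or not they keep an intron, so that share cannot rise. Srsf3 had 2 of 70 and 6 of 56 reads on non-coding forms, Srsf6 4 of 56 and 2 of 43, and Hnrnpa1 3 of 48 and 2 of 34.

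Hnrnpdl, an AU-rich element-binding relative of Hnrnpd, had a non-coding form level with its most read coding form, at 14 reads each over both libraries, and too few Known reads for the test. Its nonsense_mediated_decay form Hnrnpdl-201 held 8 of 18 and 6 of 27 full-length reads, and the coding forms Hnrnpdl-202 and Hnrnpdl-207 held 6 and 8, and 2 and 8. The non-coding form was thus first in replicate 1 and behind both coding forms in replicate 2. The intervals of its share (24.6 to 66.3% and 10.6 to 40.8%) overlapped.

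Introns left in otherwise spliced reads were counted for introns between coding exons that no exon of a coding form overlaps. This measure was added after the Srsf5 forms had been seen. Over 32418 introns with at least 10 reads in each library, the median retention was 0% in both. Of 160 member introns, 11 were retained in reads of both libraries (6.88%, against 5.65% of all), and 2 at 10% or more in both (1.25%, against 0.78%). These 2 were in Srsf5 and Srsf7.

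The Srsf5 intron of 1229 bases at chr12:80947866-80949094 (plus strand) was retained in 61 of 91 reads (67.0%, 56.9 to 75.8%) in replicate 1 and in 26 of 76 reads (34.2%, 24.5 to 45.4%) in replicate 2. The intervals did not overlap, and the two-sided Fisher's exact test gave p = 2.65e-05 and an adjusted p of 0.054 over all introns, which missed the threshold. The rule called 0.00617% of all introns. With at least 20 reads in each library, which left fewer introns, the adjusted p was 0.033, and with full-length reads only it was 0.162. The exon end and intron start are shown because they hold the stop that a retained intron would bring. The last 10 coding bases are followed by the intron up to its first in-frame stop, in capitals, at chr12:80947856-80947874.
Srsf5 intron start: cagctggcaggtttgtTGA
The stop ends 9 bases into the intron, after 366 coding bases of Srsf5-201.

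The leading full-length forms of Srsf5 differ by this intron. The coding form Srsf5-201 held 18 of 89 and 31 of 78 full-length reads (20.2% and 39.7%), whereas an unannotated form that keeps the intron and is otherwise nearest to Srsf5-201 held 32 and 14 (36.0% and 17.9%). A second unannotated form nearest to Srsf5-202 held 8 and 3 reads. The retained_intron form Srsf5-212, which has the same intron, held 5 and 6. The difference in the share of Srsf5-201 had p = 0.0066 and an adjusted p of 0.39 (two-sided Fisher's exact test). The gene's level, 103 and 87 reads, had an adjusted p of 0.59 by Fisher's exact test.

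In Srsf7, the intron of 874 bases at chr17:80204388-80205261 (minus strand) was retained in 15 of 43 reads (34.9%, 22.4 to 49.8%) and in 6 of 30 (20.0%, 9.51 to 37.3%). Inside it lies a 460-base exon of non-coding forms that 2 of 30 and 1 of 27 reads included with both splice sites. In Srsf1, the intron at chr11:88048675-88049042 was retained in 0 of 20 and 4 of 17 reads (adjusted p = 1.0 by Fisher's exact test). Hnrnpdl had 2 introns above a mean of 10%, one of 285 bases (4 of 30 and 2 of 28 reads) and one of 738 bases (3 of 28 and 3 of 31).

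Exons that only non-coding forms hold are called poison exons where they bring a stop. All exons that only non-coding forms hold were counted here, whether or not they bring a stop. Of these, 16 in 10 members had at least 10 spanning reads in each library. Of the 16, 10 were included in both (62.5%, against 14.2% of 812 such exons over all genes). With Known reads only, 1 exon was included in both. The matching share over all genes was not taken for that setting, so the count cannot be set against it. Over all read classes used, the median inclusion of the 16 exons was 6.46% and 5.97%, against 0% and 0% over all. None was called between the libraries: 0.0% of the 812 exons were called, and an unadjusted p under 0.05 was found for 3 exons, 2 of them in members. Those 2 were the 107-base exon of Hnrnpd (5 of 42 and 0 of 49 reads) and the 456-base exon of Srsf3 (1 of 71 and 6 of 58), both with an adjusted p of 1.0.

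The annotated stop falls inside a tested exon in 8 of these 10 genes. For 5 of the 8, an exon is shown up to that stop, in capitals, because the stop sets it apart from a coding exon. Each starts at the first base of the exon.
Srsf3, chr17:29039454-29039487, plus strand: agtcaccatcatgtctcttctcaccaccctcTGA
Srsf7, chr17:80205054-80205081, minus strand: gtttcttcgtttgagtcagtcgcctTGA
Tra2b, chr16:22259181-22259261, minus strand: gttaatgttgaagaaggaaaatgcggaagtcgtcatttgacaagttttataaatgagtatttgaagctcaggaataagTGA
Hnrnpl, chr7:28817335-28817393, plus strand: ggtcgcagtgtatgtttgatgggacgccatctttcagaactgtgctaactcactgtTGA
Hnrnpll, chr17:80044976-80045022, minus strand: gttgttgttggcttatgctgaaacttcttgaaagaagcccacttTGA

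The stop ended at base 34 of 456 in Srsf3, 28 of 460 in Srsf7, 81 of 276 in Tra2b, 59 of 70 in Hnrnpl and 47 of 83 in Hnrnpll. Hnrnpl, which binds CA-rich RNA, included its exon in 7 of 74 reads (9.46%, 4.66 to 18.3%) in replicate 1 and 3 of 46 (6.52%, 2.24 to 17.5%) in replicate 2. Its paralogue Hnrnpll, known for exon choice in T cells, did so in 2 of 17 and 1 of 17 reads. Tra2b included its exon in 2 of 32 and 2 of 10 reads. Its intervals, 1.73 to 20.1% and 5.67 to 51%, overlapped.

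Srsf11 had a 117-base exon in 4 of 32 and 3 of 24 reads (12.5% in each library) and a 109-base exon in 1 of 31 and 2 of 25, while its 64-base exon was held by 0 of 34 and 0 of 26. In Srsf4, a long SR protein, the 207-base exon was included in 4 of 44 and 2 of 32 reads, the 184-base exon in 3 of 43 and 1 of 31, and the 174-base exon in 3 of 43 and 2 of 33. The 198-base version of the last, with another splice site, was held by 0 of 40 and 0 of 31 reads. Srsf10 had 0 of 23 and 1 of 14 reads and Srsf9 0 of 81 and 2 of 64 on their exons. The 71-base version of the Hnrnpd exon was held by 0 of 37 and 0 of 49 reads. The annotated stop lies outside the Hnrnpd exons and outside the 184-, 174- and 198-base exons of Srsf4.

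**Figure D4:**
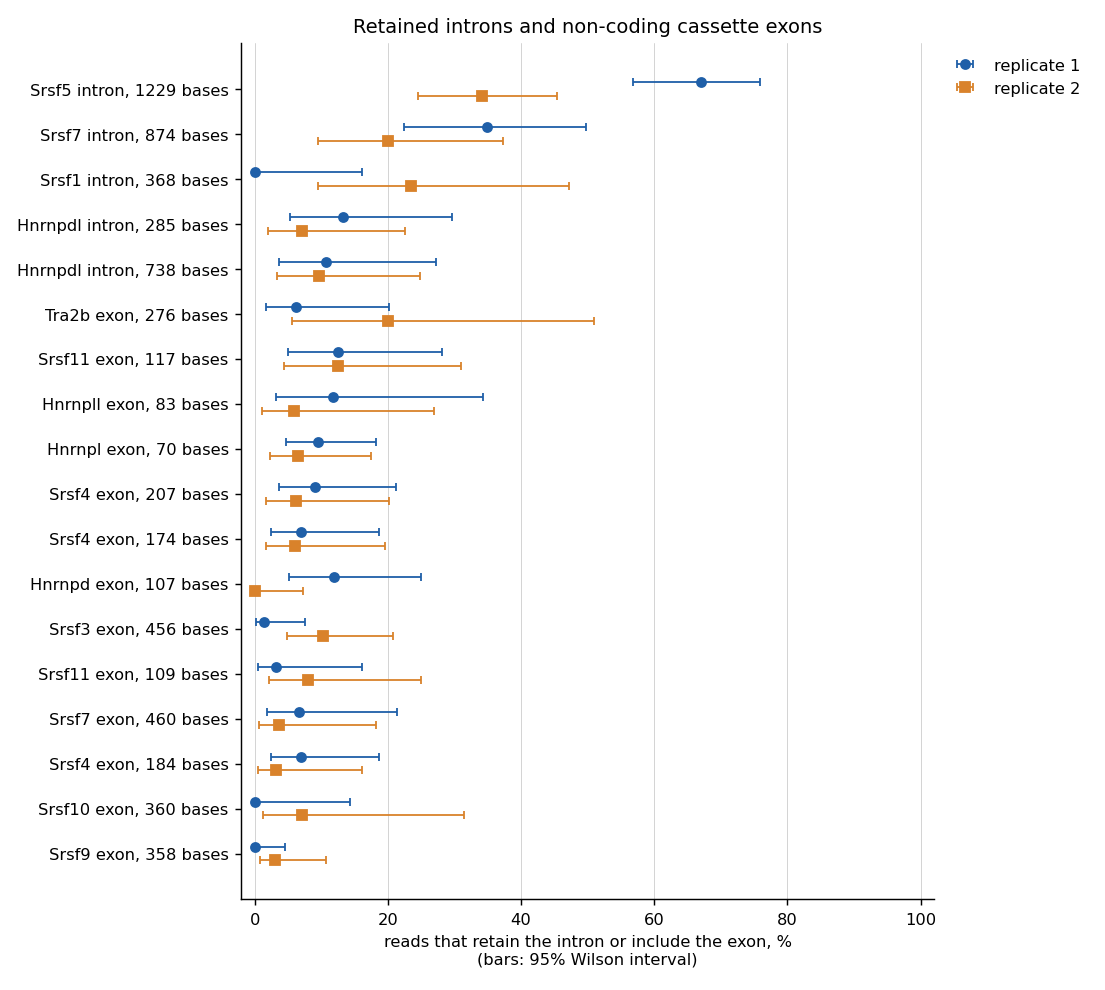
Percent of reads that retain an intron (top 5 lines, introns with a mean retention of at least 10%) or include a non-coding cassette exon (the 13 exons with any read), with replicate 1 above replicate 2 on each line and bars for 95% Wilson intervals. The intervals of the 2 libraries do not overlap for the Srsf5 intron, with 67.0% in replicate 1 and 34.2% in replicate 2.

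Many exons of coding forms were alternative in the hnRNP genes, and no member exon was called between the libraries. This measure too was added after the data had been seen. In 16 members, 32 such exons had at least 10 reads in each library. Of these, 14 were included in 5 to 95% of reads in both (43.8%, against 15.8% of 3656 exons over all genes). Among the 14, only the 36-base exon of Srsf7 was in an SR gene, and the others were in hnRNP genes. The 169-base and 166-base exons of Hnrnpr, which have the same end, are counted separately among the 14. The rule called 0.0% of all exons by Fisher's exact test, and 41 of all exons and 1 member exon had an unadjusted p under 0.05. The median absolute difference of the member exons was 1.48 percentage points.

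The exon of the B1 isoform of Hnrnpa2b1, 36 bases at chr6:51467391-51467426, was included in 11 of 173 reads (6.36%, 3.59 to 11%) and in 17 of 110 reads (15.5%, 9.88 to 23.4%). Its unadjusted Fisher's exact p was 0.015 and its adjusted p 1.0. Its 120-base exon was included in 177 of 199 and 104 of 127 reads. Hnrnpd, also called AUF1, has isoforms set by 2 exons. The 57-base exon at chr5:99976534-99976590 was included in 24 of 45 (53.3%) and 29 of 51 reads (56.9%), and the 147-base exon in 30 of 46 (65.2%) and 34 of 51 (66.7%).

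These exons, on the minus strand, are shown with that of Srsf7 because each is a multiple of 3 bases long and lies wholly in coding sequence. The exon is in capitals, with up to 9 coding bases of its neighbours in lower case.
Hnrnpa2b1: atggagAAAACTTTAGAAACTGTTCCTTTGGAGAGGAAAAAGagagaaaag
Hnrnpd: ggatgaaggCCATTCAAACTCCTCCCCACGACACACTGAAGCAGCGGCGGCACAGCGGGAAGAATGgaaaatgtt
Srsf7: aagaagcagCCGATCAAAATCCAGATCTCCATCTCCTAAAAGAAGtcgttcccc

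The 36-base exon of Srsf7 at chr17:80202169-80202204 was included in 46 of 52 reads (88.5%) and 30 of 35 (85.7%). The 141-base exon of Hnrnpab was included in 28 of 86 (32.6%) and 18 of 52 (34.6%), the 159-base exon of Hnrnpa1, a close relative of Hnrnpa2b1, in 14 of 58 (24.1%) and 7 of 39 (17.9%), and the 72-base exon of Hnrnpk in 234 of 265 (88.3%) and 136 of 144 (94.4%). Hnrnph3 included its 139-base exon, which is not a multiple of 3, in 11 of 16 and 16 of 24 reads. Of exons not wholly in coding sequence, the 26-base exon of Hnrnpc was in 76 of 91 and 42 of 48 reads and the 45-base exon of Hnrnph2 in 13 of 57 and 11 of 31. All of these pairs of Wilson intervals overlapped.

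**Figure D5:**
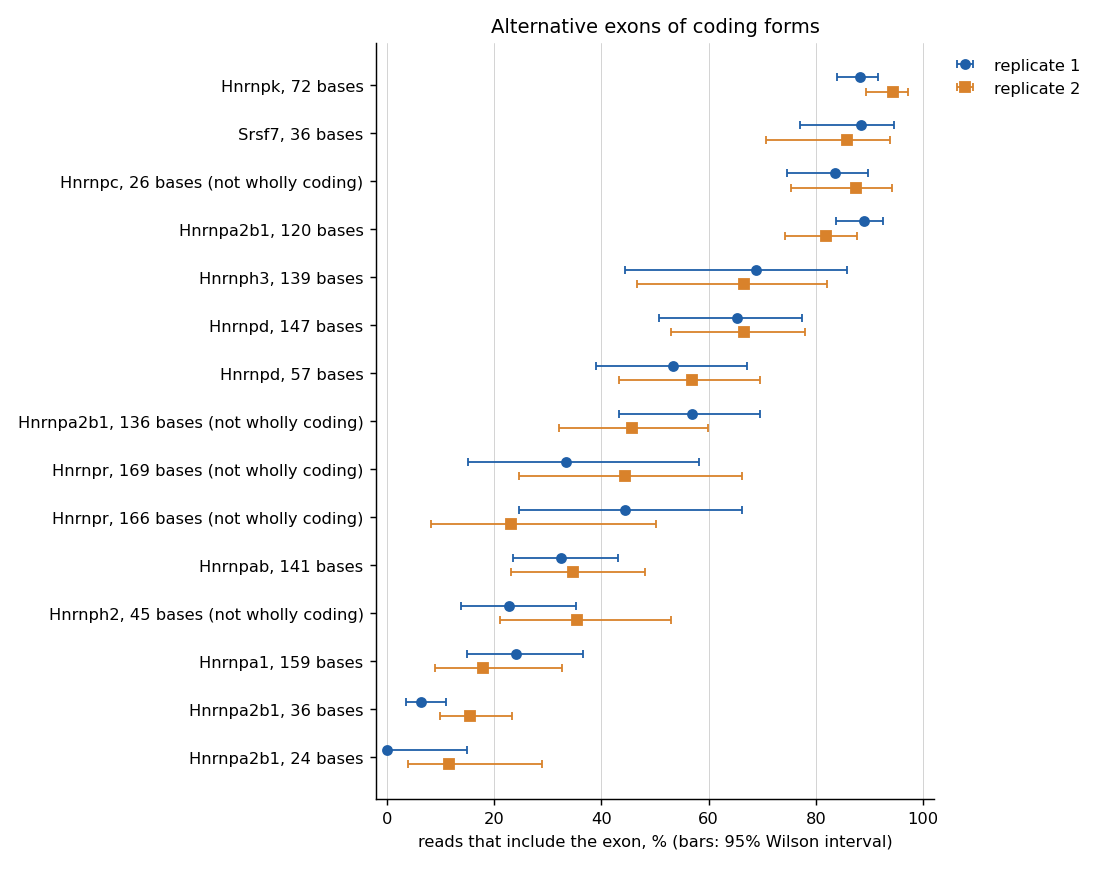
Percent of reads that include each alternative exon of coding forms with a mean inclusion of 5 to 95%, with replicate 1 above replicate 2 on each line and bars for 95% Wilson intervals. Exons run from the 72-base exon of Hnrnpk (88.3% and 94.4%) down to the 24-base exon of Hnrnpa2b1 (0 of 22 and 3 of 26 reads). The counts of that 24-base exon leave out the 177 and 104 reads that hold its overlapping 120-base version.

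Of the members, 10 reached 50 full-length reads in both libraries, and their leading form held a median of 63.0% and 53.0% of them. Over all 1321 such genes the medians were 94.7% and 95.0%. With Known reads only, which left 6 members and 1193 genes, the medians were 97.3% and 93.1% for the members and 99.3% and 99.1% for all genes. In 4 of the 10 (40%) the leading form held under 50% in both libraries, against 3.63% of all. That count was 0 of 6 members with Known reads only and 8 of 20 when 20 full-length reads sufficed. The matching count over all genes was not taken for these settings. The 4 were Hnrnpk, Hnrnpc (Hnrnpc-205, 41.5% and 42.3%), Hnrnpf (Hnrnpf-201, 43.6% and 43.0%) and Srsf5. At the other end, Srsf9-201 held 96.3% and 100% of Srsf9 reads, Hnrnpu-201 93.5% and 94.4%, Srsf2-201 88.0% and 87.7%, and Srsf3-202 88.3% and 83.3%. The rule called 0.227% of all genes and 0 members (Fisher's exact test), with 1 member, Srsf5, at an unadjusted p under 0.05.

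Hnrnpf had 2 unannotated forms nearest to Hnrnpf-204, with 18 of 117 and 11 of 86 reads and with 8 and 3 reads. Both were NNC in each library. Hnrnpa2b1-204, the leading form of that gene, held 104 of 167 and 53 of 102 reads (62.3% and 52.0%), and an unannotated form nearest to it held 13 and 10. Hnrnpab-201 held 49 of 77 and 27 of 50 reads.

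Several members overlap annotated genes on the other strand, among them Srsf2 with Mettl23 (22 and 27 reads) and Mfsd11 (14 and 25), and Hnrnpu with Cox20 (34 and 57). Hnrnpm overlaps March2 on the same strand (100 and 105 reads). Hnrnpa1 and other members have near-identical processed pseudogenes, so that reads of such genes could be split by the authors' assignment, and their levels are uncertain to that extent.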

How the data were processed

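The authors deposited, per the file headers, whole read counts for each transcript model of 2 long-read libraries, with models on mm10 and GENCODE M21 names. The models carry TALON-style classes. Not given in the sources used here: aligner, TALON version and strand handling. No count normalisation is recorded. Counts were summed per gene and scaled by endogenous reads, leaving out spike-ins, which gives CPM. Known models kept the M21 transcript that the authors assigned, and NIC and NNC models were matched between the libraries by intron chain.

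Levels, non-coding shares, exon and intron inclusion and leading forms were compared between libraries by two-sided Fisher's exact tests with Benjamini-Hochberg adjustment over all genes, exons or introns. A call needed an adjusted p under 0.05 and at least 2-fold after adding 1 CPM, or at least 10 percentage points. Minimums were 10 reads in sum for levels, 20 Known reads, 50 full-length reads and 10 spanning reads in each library. Such a test on 2 libraries compares reads of those libraries.

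The text names the 10 most abundant members, called members, and members with at least 10% non-coding reads in both libraries. It also names members led by a form that is not annotated as coding, and the 3 most abundant genes of each of the 4 partner lists. Tested non-coding cassette exons are all named, but only some of the tested exons of coding forms are. Other names were added after their values were seen. The members and lists were chosen with earlier results of these data known. Scripts were tested on simulated data. Sequences come from the M21 transcripts, with GRCm38/mm10 coordinates, on the stated strand.

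Alternatives used TMM factors (edgeR 4.0.16) and DESeq2 1.42.0 size factors (R 4.3.3), other minimums and other read classes. The remaining steps used Python 3.11.15, pandas 2.3.3, numpy 2.4.6, scipy 1.17.1 and matplotlib 3.10.9. Protein composition was not analysed here.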

Additional observations from a re-analysis of the deposited data

Results flagged for a closer look

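Reads that the authors' models place antisense to 6 members lay above the limit of 3 counts in both libraries, and no comparison above uses them. Hnrnpl had 35 antisense reads in replicate 1 and 26 in replicate 2, or 41.7% and 44.1% of its sense reads. Of these, 32 and 24 came from a single-exon model of 393 bases at chr7:28821848-28822240, which lies wholly over an exon of a coding form. Srsf10 had 25 and 17 antisense reads, or 80.6% and 121% of its sense reads, with 19 and 14 on a single-exon model at chr4:135857888-135858305. That model overlaps exons of coding forms by only 1 base. Tra2b had 9 and 8 antisense reads, Hnrnpul1 8 and 8, Hnrnpr 7 and 7, and Hnrnph3 5 and 10. What these reads come from was not tested.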

How the results depend on the processing

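By CPM, 27 of 32 members were higher in replicate 1. The number was 26 with TMM and with DESeq2 factors, where Srsf1 no longer counted as higher, 24 of 30 with full-length reads, where Hnrnph1 turned, and 28 without Genomic reads, where Hnrnpll turned. None of these 3 had an adjusted p under 0.05 there or by CPM. The count of called members was 1 under each level setting that was run. Hnrnpf lost its adjusted p under 0.05 with TMM (0.0974) and DESeq2 factors (0.0664), with no minimum (0.0705) and with full-length reads only (0.273), and Hnrnph2 with TMM (0.0521), full-length reads (0.0912) and without Genomic reads (0.0547). All genes had a median log2 ratio of -0.03 under TMM, beside 0.38 for the members.

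The number of members with at least 10% non-coding reads, 2, was 0 with at least 50 Known reads, since Srsf5 and Srsf7 fell under that minimum. It was also 0 over full-length reads, where unannotated reads enter only the denominator. The pooled share, 4.06%, was 3.96% without processed_transcript and 3.46% over full-length reads. The non-coding exons read in both libraries, 10, fell to 1 with Known reads only. The pooled inclusion of the tested non-coding exons, 4.95%, was 0.899% with Known reads only and 10.3% with any overlap. Any overlap also counts reads that keep the intron around an exon. For coding exons the pooled inclusion, 49.5%, was 51.1% with Known reads only and 58.0% with any overlap. Leading forms under 50% were found in 8 of 20 members at 20 full-length reads. With Known reads only they were found in 0 of 6, where the median leading share was 95.2%. Hnrnpk, Hnrnpc and Srsf5 had too few Known reads to enter that set. Known reads made up 71.6% without Hnrnpk and 71.5% with its short exon as annotated; NIC and NNC were then 8.26% and 4.24% without Hnrnpk. With at least 20 reads, 1 member intron was called, that of Srsf5, since fewer introns were tested. For the changes given here without a reason, the cause was not tested.

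From a single library, the summed level was 3371 to 4768 CPM, the Known share 62.1 to 64.3% and the median leading share 53.0 to 63.0%. No paired analysis was possible because there is 1 group and the replicate numbers pair nothing. The measures of coding exons, introns and short exons, and the settings around Hnrnpk, were chosen after seeing the data. Depth limits members under 20 reads most.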
